A study of Mus musculus with 6 samples.

Results

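The 10 genes described here encode RNA-binding proteins that decide how long cytokine messenger RNAs last: Zfp36, Zfp36l1, Zfp36l2, Zc3h12a, Zc3h12c, Zc3h12d, Rc3h1, Rc3h2, Elavl1 and Arid5a. They were taken by name from the 55263 annotated genes of the count table, with the read counts of all transcripts of a gene added up, and no threshold on their levels was used. All 10 passed the filter on low counts and were among the 17113 genes tested. The cells were wild-type mouse bone marrow-derived macrophages, which are grown in culture from marrow progenitors. One group received lipopolysaccharide (LPS), a bacterial cell wall component, together with an agent labelled HACA. A second group received LPS alone, and the third was the control. Each group had 2 libraries, numbered 1 and 2, and each library was made from poly-A selected RNA. What HACA stands for, the doses and the duration are not stated in the labels, and the title of the series concerns a nanomedicine of hyaluronic acid for psoriasis.

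Cytokine messenger RNAs are short-lived because their 3′ untranslated regions carry elements that recruit decay factors. Tristetraprolin, the product of Zfp36, and its relatives from Zfp36l1 and Zfp36l2 bind AU-rich elements and bring in the enzymes that shorten the poly-A tail. Regnase-1, the product of Zc3h12a, is an endonuclease that cuts messenger RNAs at stem-loops with a short pyrimidine-purine-pyrimidine loop, and Zc3h12c and Zc3h12d encode regnase-3 and regnase-4 of the same family. Roquin-1 and roquin-2, from Rc3h1 and Rc3h2, bind similar stem-loops. HuR, from Elavl1, binds AU-rich RNA and is best known for stabilising it, and Arid5a is known to protect Il6 messenger RNA from regnase-1.

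Several of these messenger RNAs carry the same elements themselves. The first element searched was the nonamer UUAUUUAUU, the preferred site of the tristetraprolin family, in the longest annotated 3′ untranslated region of each gene (GENCODE annotation, GRCm38, gene strand only). The sequences are shown because they are the RNA letters on which these proteins act. Capitals mark the nonamer, T stands for U, and overlapping copies were counted separately.
Zfp36: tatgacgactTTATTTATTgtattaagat
Zfp36l1: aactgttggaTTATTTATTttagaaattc
Zfp36l2: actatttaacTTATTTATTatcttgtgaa
Elavl1: tgaaaaTTATTTATTTATTTATTTATTtt
Tnf: ttaTTATTTATTATTTATTTATTatttat
All 5 genes lie on the minus strand, and the stretches are chr7:28376951-28376979 for Zfp36, chr12:80108167-80108195 for Zfp36l1, chr17:84184914-84184942 for Zfp36l2, chr8:4285784-4285812 for Elavl1 and chr17:35199682-35199710 for Tnf. Each of the 3 tristetraprolin family genes held 1 copy, whereas Elavl1 held 8 clustered copies. Tnf, the classical tristetraprolin target, held 5 copies and is shown for comparison. Among 3′ untranslated regions within 20% of the same length, the nonamer occurred in 4.01% for Zfp36, 10% for Zfp36l1 and also for Zfp36l2, and 18.0% for Elavl1. Rc3h1 and Rc3h2 also held 1 copy each, in length classes where 27.5% and 22.0% of regions did. No copy was found in Zc3h12a, Zc3h12c, Zc3h12d or Arid5a. Of the other tristetraprolin targets listed for the comparison below, Csf2, Cxcl1, Cxcl2, Il23a and Ptgs2 held the nonamer. Ccl2, Ccl3, Ier3, Il10 and Il1a did not.

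The second element searched was a stem of 5 paired bases closed over a loop of TAT or TGT, on the gene strand. Capitals mark the stem and its loop.
Zc3h12a: ggcgagatTTAAATATTTTAAatgaaaaa
Rc3h1: agccaataACTTCTGTGAAGTtgcctttt
Rc3h2: tttaattaACTTCTGTGAAGTtgtttact
Tnf: cagacatgTTTTCTGTGAAAAcggagctg
Nfkbiz: tgtaagttGTTTCTATGAAACaaacccat
These lie at chr4:125118656-125118684 (minus strand) for Zc3h12a, chr1:160971653-160971681 (plus strand) for Rc3h1, chr2:37373802-37373830 (minus strand) for Rc3h2, chr17:35199578-35199606 (minus strand) for Tnf and chr16:55812607-55812635 (minus strand) for Nfkbiz. Zc3h12a held 1 such stem-loop, as did 7.40% of 3′ untranslated regions of like length. Rc3h1 held 4 and Rc3h2 held 2, in length classes where 40.7% and 33.2% of regions held at least 1. The pair shown has the same stem and loop letters in both roquin genes. The remaining 7 genes held none. Of the regnase-1 or roquin targets listed for the comparison below, Nfkbiz, Nfkbid, Ptgs2 and Tnfrsf4 held such a stem-loop. Il6, Il12b, Il1b and Tnfrsf9 did not. A match describes letters only and was not measured as a binding site here.

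Library totals were 13933604 and 13007575 counts with LPS+HACA, 12529874 and 15379496 with LPS, and 13806911 and 13036776 in control. Levels are given as CPM, the counts of a gene scaled to a common library size. Summed over 9 macrophage markers the level was 31610 and 34430 CPM with LPS+HACA, 43280 and 54550 CPM with LPS, and 41320 and 39780 CPM in control, most of it Lyz2. Adgre1 and Itgam, both among these markers, were under 2 CPM in every library. As described below, counts fell almost only on transcripts with bases that no other annotated transcript shares. A low or 0 level of a marker therefore need not mean that its RNA was absent. The T and NK cell markers summed to at most 1.08 CPM in any library, with Cd3e and Ncr1 at 0. Replicate number went with other cell markers: 8 stromal genes summed to 32.4 to 49.8 CPM in the libraries numbered 1 and 1.35 to 2.70 CPM in those numbered 2. Nearly all of the sum in the libraries numbered 1 came from Col1a1, Col1a2 and Col3a1. Only these 3 of the 8 stromal genes were higher in the library numbered 1 of every group. All 8 cell cycle genes were higher there in every group. Neutrophil markers ran the other way, at 4.74 and 33.0 CPM with LPS+HACA, 12.7 and 60.3 CPM with LPS, and 6.84 and 34.9 CPM in control, mostly Ngp, with Ly6g and S100a9 at 0. Zfp36, Zc3h12a, Zc3h12c, Elavl1 and Arid5a were also higher in the library numbered 2 of every group and Zc3h12d in that numbered 1, and the part of these markers in their levels was not tested. B cell markers summed to 13.7 and 8.25 CPM with LPS+HACA, 3.15 and 3.76 CPM with LPS, and 12.04 and 13.6 CPM in control, with Cd79b at 0 in every library. They were thus lowest with LPS, as were Zfp36l1, Zfp36l2 and Zc3h12d below, and their part in those results was not tested. The sum of the dendritic cell markers was highest with LPS, as were Zc3h12a, Zc3h12c and Arid5a, at 10.99 and 12.58 CPM with LPS+HACA, 24.9 and 26.9 CPM with LPS, and 8.16 and 10.2 CPM in control. Most of the sum with LPS was Xcr1, at 18.7 and 13.6 CPM. Zbtb46 overlapped between all groups, and Clec9a was lower with LPS than with LPS+HACA. Of the 4 dendritic cell markers tested, Xcr1 alone was called, higher with LPS than in control and lower with LPS+HACA than with LPS. The part of these markers was likewise not tested. In such bulk samples fewer cells of a type and less RNA per cell cannot be told apart. Nothing in the labels states that a group's libraries are from different cultures or mice. The p-values therefore reflect only how these libraries differ among themselves, which may be technical.

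Counts in the deposited table fell almost only on transcripts with bases that belong to no other annotated transcript. Read positions were not available. Counts are taken here as coming from these unshared bases, which is an inference, and reads may reach from them into shared bases. Transcripts with at least 100 such unshared bases held 99.2% of all counts, and transcripts with none held 0.067%. For Zfp36l1, Zfp36l2 and Zc3h12d every count came from exons of a coding transcript, as did 97.4% for Zc3h12a and 95.1% for Zc3h12c. The rest of Zc3h12c fell on Zc3h12c-201, whose 81 unshared bases are coding and lie inside an intron of Zc3h12c-202. For Zfp36, 88.2% of the counts fell on the single-exon transcript Zfp36-202, whose 555 unshared bases all lie in the intron of the spliced transcript Zfp36-201. The coding sequence and nearly all of the 3′ untranslated region are shared by both transcripts, so on this reading they added almost no counts. The intronic share was 92.6% for Arid5a, 96.7% for Rc3h2, 100% for Rc3h1 and 32.6% for Elavl1. In these 5 genes spliced and unspliced RNA cannot be told apart from the summed counts. Such genes were common, since 2344 of 9964 protein-coding genes with at least 100 counts (23.5%) had most of their counts in transcripts annotated as retained introns. The plot of where the counts fell shows this division.

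**Figure D1:**
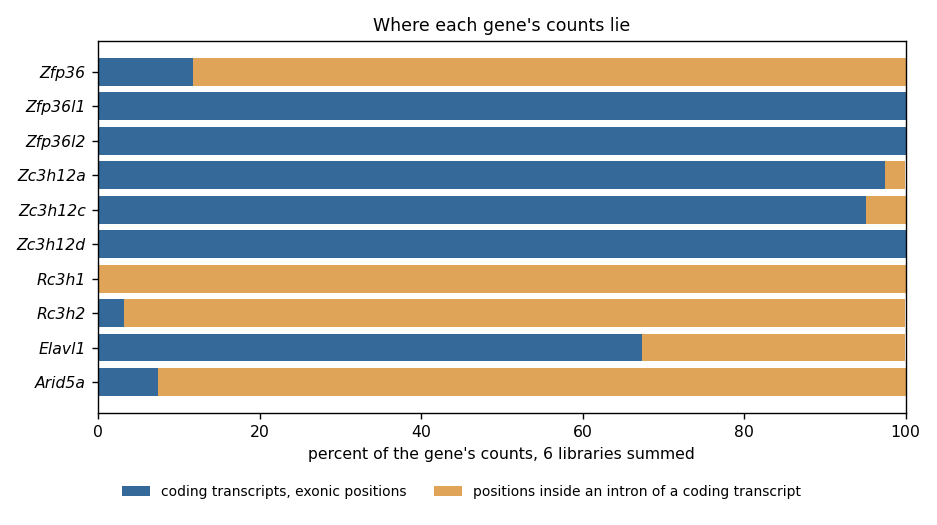
Share of each gene's counts, in percent and over all 6 libraries, by transcript. Transcripts were classed as intronic with at least 90% of their unshared bases inside an intron of another coding transcript of the gene. The remaining coding transcripts were classed as exonic. Zfp36, Arid5a, Rc3h1 and Rc3h2 were counted mostly in introns, Elavl1 at 32.6%, and the other 5 genes almost entirely in exons.

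With LPS alone, macrophages held more Zc3h12a, Zc3h12c, Arid5a and Zfp36 RNA and less Zfp36l2, Zc3h12d and Zfp36l1 RNA than control macrophages. Thus 4 of the 10 genes were called higher and 3 lower at an adjusted p under 0.05, where 15.9% of all genes tested were called higher and 14.3% lower. The libraries did not overlap for 9 genes, 6 higher and 3 lower, against 66.7% of all genes (31.4% higher and 35.3% lower). The median size of the log2 change, sign ignored, was 1.997 over the 10 genes and 0.81 over all genes tested. With HACA added to LPS, Zfp36l2 and Zc3h12d were higher than with LPS alone, and Zc3h12a, Zc3h12c and Arid5a were lower. These 2 genes called higher and 3 called lower stood against 5.74% and 7.67% of all genes tested. Here the libraries did not overlap for 8 genes, 3 higher and 5 lower, against 57.7% of all genes (30.3% and 27.3%). Between LPS+HACA and control none of the 10 was called by edgeR, where 1.15% of all genes were called (0.894% higher and 0.257% lower). The libraries did not overlap for 4 higher and 3 lower genes, against 46.5% of all genes (23.4% and 23.1%). At an unadjusted p under 0.05 there were 3 (Zfp36, Zfp36l2 and Zc3h12c), as were 2000 of the 17113 genes tested. DESeq2 called 1 higher (Zc3h12c), where 455 of 29118 genes fitted were called higher. By limma-voom 0 were called, where 82 of 17113 genes were called higher and 37 lower. Without the low-count filter edgeR called 1 higher (Zc3h12c), where 661 of 29118 genes were. With a term for the library number, edgeR called Zfp36 and Zc3h12c higher and Zc3h12d lower, where 628 of 17113 genes were higher and 307 lower. The labels do not say that these numbers pair the samples. Every group enters 2 of these comparisons, so the comparisons are not independent. Where a library is left out below, the lone library of its group is assumed to vary like those of the other groups, so a lost call need not mean a smaller change. The levels in every library and the fitted changes are shown in the plots of CPM and of log2 fold change.

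**Figure D2:**
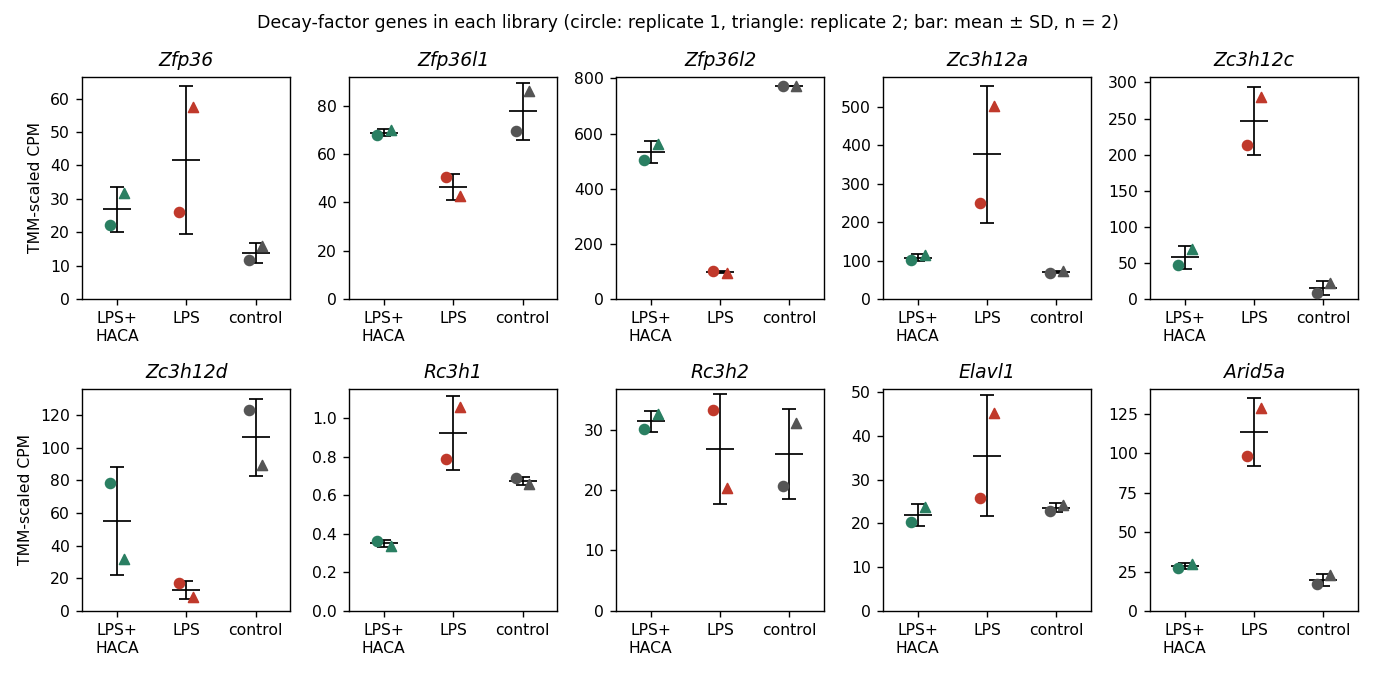
Level of each gene in CPM (linear axis from 0, its own scale for each gene) in the 6 libraries, with LPS+HACA left of LPS and LPS left of control; each point is 1 library and each bar the mean ± SD of 2. Zfp36l2 lies at 504 and 561 CPM with LPS+HACA, at 100.1 and 94.1 CPM with LPS and at 771 and 772 CPM in control, while Zc3h12a and Zc3h12c are highest with LPS.

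**Figure D3:**
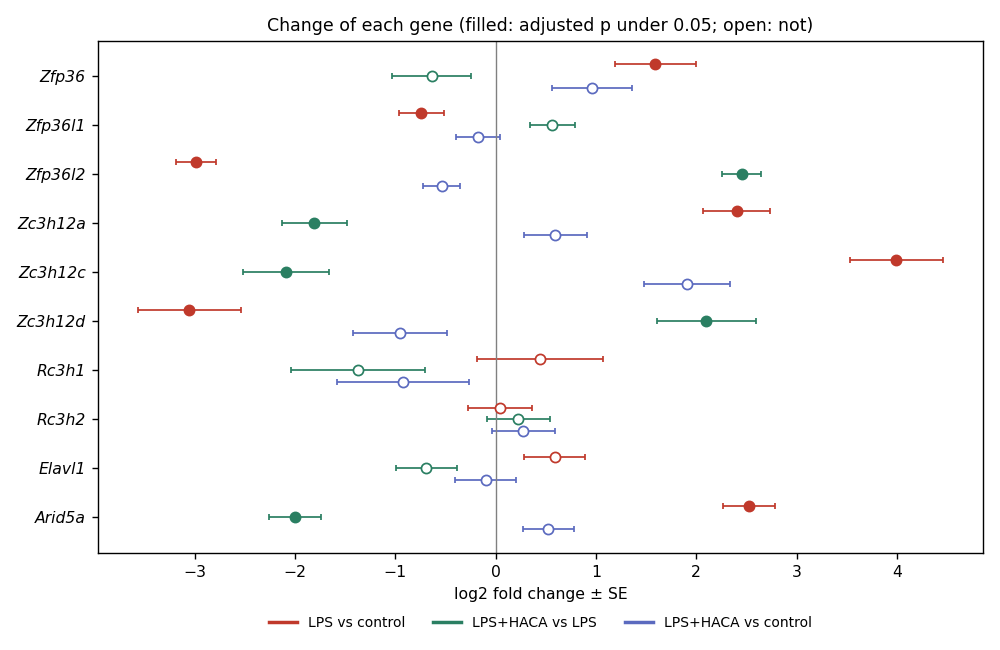
Log2 fold change ± SE of each gene in the 3 comparisons, with filled points where the adjusted p was under 0.05. The filled points are 7 genes for LPS against control and 5 for LPS+HACA against LPS, and none for LPS+HACA against control.

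Zfp36, at chr7:28376784-28380253 on the minus strand of GRCm38, encodes tristetraprolin, the founding member of the family and an immediate early gene. Its level was 22.1 and 31.6 CPM with LPS+HACA, 26.0 and 57.4 CPM with LPS, and 11.7 and 15.9 CPM in control. Both LPS libraries lay above both control libraries, and the LPS+HACA libraries overlapped the LPS ones. The log2 fold change was 1.59 ± 0.40 for LPS against control (adjusted p = 0.0208), -0.63 ± 0.39 for LPS+HACA against LPS (0.315) and 0.96 ± 0.40 for LPS+HACA against control (0.401). The LPS call was lost without the first control library (1.37, adjusted p = 0.148), the second control library (1.83, 0.0816) or the second LPS library (0.91, 0.0636), and with scaling by library totals alone (0.90, 0.0833). The change between LPS+HACA and LPS was -1.10 and called without the first LPS library (adjusted p = 0.0378), but 0.05 without the second (0.947) and 0.05 with library totals (0.923). The intronic Zfp36-202 had 310 and 421 counts with LPS+HACA, 227 and 537 with LPS, and 162 and 213 in control. The unshared bases of spliced Zfp36-201, nearly all 5′ untranslated, had far fewer, 54 and 47 counts with LPS+HACA, 37 and 59 with LPS, and 25 and 28 in control. That transcript starts 1025 bases upstream of the start site RefSeq gives. If counts came from unshared bases, the part of the tristetraprolin messenger RNA that both annotations share was hardly sampled.

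Zfp36l1 (chr12:80107754-80113013, minus strand) encodes the second family member, known in lymphocyte development and in myeloid cells. Its level was 68.0 and 69.9 CPM with LPS+HACA, 50.3 and 42.8 CPM with LPS, and 69.4 and 86.2 CPM in control. The LPS libraries were the lowest pair, and the other 4 libraries overlapped. With LPS it was lower than in control, at a log2 fold change of -0.74 ± 0.22 (adjusted p = 0.0389), the smallest change among the 7 called genes, and with HACA the change relative to LPS was 0.57 ± 0.22 (0.13), or 1.199 and called with library totals alone (0.0203). Leaving out either control library, the second LPS library or either LPS+HACA library ended the LPS call (log2 fold change -0.91 to -0.57, adjusted p = 0.0743 to 0.258), as did fitting without the low-count filter (0.0526) or with the 2 groups alone (0.0694). All counts fell on the coding transcript Zfp36l1-201. Its 298 unshared bases are 9.97% of the exonic bases of the gene, and 285 of them lie in the 3′ untranslated region.

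Zfp36l2 (chr17:84183931-84187947, minus strand), the third family member, is known for limiting proliferation of blood progenitors and lymphocytes. It had 504 and 561 CPM with LPS+HACA, 100.1 and 94.1 CPM with LPS, and 771 and 772 CPM in control. The groups were far apart and the replicates close, with a coefficient of variation of at most 7.58%. It fell to 97.1 ± 4.22 CPM with LPS, against 771 ± 0.794 CPM in control (SD, n = 2 each), a log2 fold change of -2.99 ± 0.20 (adjusted p = 0.000146). With HACA it was 5.48-fold higher than with LPS alone, a log2 fold change of 2.45 ± 0.20 (adjusted p = 0.00165). Between LPS+HACA and control the change was -0.54 ± 0.19 (adjusted p = 0.284), with both LPS+HACA libraries below both control libraries. Of its 3530 exonic bases 3425 were unshared, coding sequence included. No alternative setting or left-out library ended either call.

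Ratios of counts within the tristetraprolin family differed between groups, and no scaling between libraries enters them. Zfp36 was counted mostly on intronic bases (88.2%) and Zfp36l1 and Zfp36l2 on exons. The ratios to Zfp36 therefore do not give the makeup of the family's messenger RNA. Counts of Zfp36l2 per count of Zfp36 were 22.8 and 17.7 with LPS+HACA, 3.85 and 1.64 with LPS, and 65.7 and 48.4 in control. Counts of Zfp36l2 per count of Zfp36l1 were 7.41 and 8.02 with LPS+HACA, 1.99 and 2.20 with LPS, and 11.1 and 8.96 in control. Both ratios were lowest in the LPS libraries and intermediate with HACA, with no overlap between groups. For Zfp36l1 per Zfp36 the values were 3.07 and 2.21 with LPS+HACA, 1.94 and 0.745 with LPS, and 5.92 and 5.41 in control. The size of such a ratio depends on how many bases of each gene were counted, so only its differences between libraries can be read, and these ratios were not tested.

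Zc3h12a (chr4:125118423-125127840, minus strand) encodes regnase-1, which cuts Il6, Il12b and its own messenger RNA. Its level was 101.3 and 114 CPM with LPS+HACA, 251 and 502 CPM with LPS, and 68.9 and 73.4 CPM in control. Both LPS libraries were above all others although they differed between themselves by more than any other pair, and both LPS+HACA libraries lay above both control libraries. The log2 fold change was 2.40 ± 0.33 for LPS against control (adjusted p = 0.0017), -1.81 ± 0.32 for LPS+HACA against LPS (0.0137) and 0.60 ± 0.32 for LPS+HACA against control (0.55). The LPS+HACA call was lost, with a change of similar size, in a fit of the 2 groups alone (-1.76, adjusted p = 0.0531), without the first LPS+HACA library (-1.69, 0.0895) and without the second (-1.90, 0.0581). Coding transcript Zc3h12a-201 carried the counts over 2222 unshared bases, including 1255 of coding sequence.

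Zc3h12c (chr9:52111344-52168572, minus strand) encodes regnase-3, a family member expressed in macrophages. It had 47.0 and 69.4 CPM with LPS+HACA, 214 and 280.0 CPM with LPS, and 8.91 and 22.1 CPM in control. The 3 groups did not overlap, and control replicates differed by more, in proportion, than those of the other groups. It rose with LPS, at a log2 fold change against control of 3.99 ± 0.47 (adjusted p = 0.00096), the largest rise among the 10 genes and rank 278 of all 17113, and 4.80 without the second control library. It was lower with LPS+HACA than with LPS alone, at a log2 fold change of -2.09 ± 0.43 (adjusted p = 0.021). Leaving out any LPS or LPS+HACA library ended that call, while the change stayed between -2.40 and -1.80 (adjusted p = 0.0626 to 0.132). With HACA the level was 58.2 ± 15.8 CPM, against 15.5 ± 9.32 CPM in control (SD, n = 2 each), a log2 fold change of 1.91 ± 0.43 that was not called (adjusted p = 0.0977). It was called by DESeq2 (0.000824) and by edgeR without the low-count filter (2.99e-08), and was 1.39 without the first and 2.71 without the second control library. Only 793 of 6845 exonic bases were unshared, and 641 of the 712 unshared bases of Zc3h12c-202 lie in the 3′ untranslated region.

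Zc3h12d (chr10:7832470-7870396, plus strand) encodes regnase-4, best known in lymphocytes. It had 78.2 and 31.6 CPM with LPS+HACA, 16.9 and 8.77 CPM with LPS, and 123 and 89.4 CPM in control. The groups did not overlap, and within each group the library numbered 1 was the higher, as with the stromal sum and the cell cycle genes. The log2 fold change was -3.05 ± 0.51 for LPS against control (adjusted p = 0.00456), 2.10 ± 0.49 for LPS+HACA against LPS (0.0336) and -0.95 ± 0.47 for LPS+HACA against control (0.519). Without the second LPS library the first call missed the threshold (-2.65, adjusted p = 0.0545). The call for LPS+HACA against LPS was lost with the 2 groups alone (2.15, adjusted p = 0.0728) and on leaving out any library but the second LPS+HACA one (0.0588 to 0.189). The change was then 1.33 without the first LPS+HACA library, 1.70 without the second LPS library and 2.10 to 2.64 without the others. All 4092 exonic bases of its single transcript were unshared.

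Ratios of counts within the regnase family also differed between groups. Counts of Zc3h12a per count of Zc3h12d were 1.30 and 3.61 with LPS+HACA, 14.9 and 57.3 with LPS, and 0.560 and 0.822 in control. Zc3h12c per Zc3h12d was 0.601 and 2.19 with LPS+HACA, 12.7 and 31.95 with LPS, and 0.0724 and 0.247 in control. LPS libraries had the highest and control libraries the lowest of both ratios, with no overlap. In contrast, Zc3h12c per Zc3h12a was 0.464 and 0.608 with LPS+HACA, 0.852 and 0.558 with LPS, and 0.129 and 0.301 in control, and there the LPS+HACA and LPS libraries overlapped. The plot of count ratios sets the pairs side by side.

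**Figure D4:**
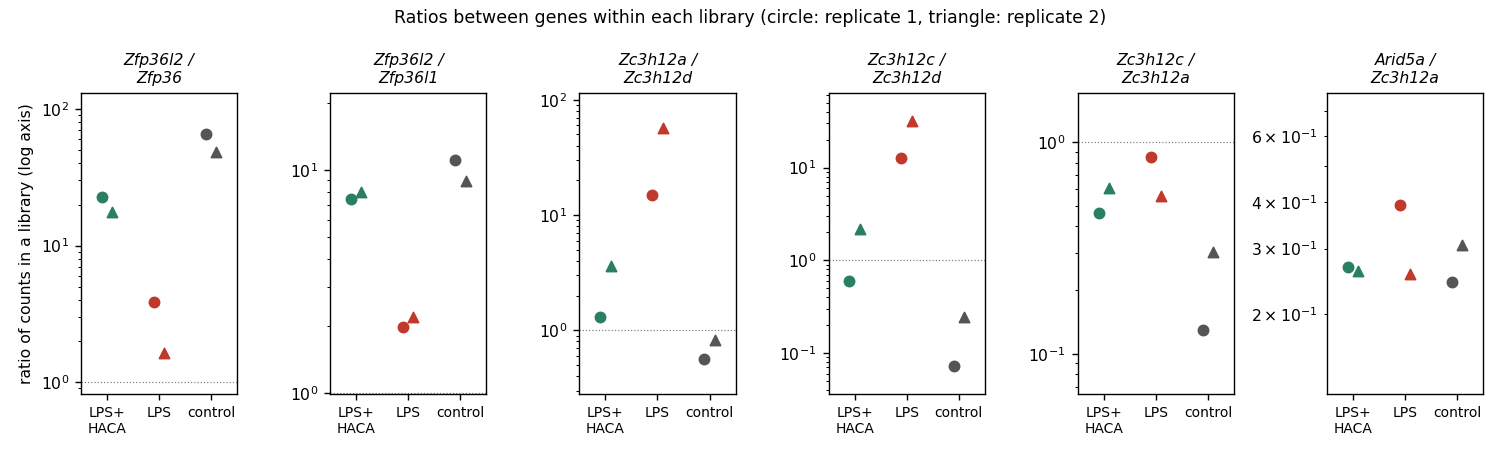
Ratio of the counts of 2 genes in the same library (log axis) for pairs of family members and for Arid5a over Zc3h12a, with LPS+HACA left of LPS and LPS left of control; each point is 1 library, and a dotted line marks equal counts. Zfp36l2 over Zfp36 was lowest and Zc3h12a over Zc3h12d highest in both LPS libraries, and the LPS+HACA libraries lay between LPS and control in both.

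Arid5a (chr1:36307733-36324029, plus strand) encodes a protein that binds the Il6 3′ untranslated region and counters regnase-1. Its summed level was 27.1 and 29.8 CPM with LPS+HACA, 98.3 and 129 CPM with LPS, and 16.9 and 22.6 CPM in control. No groups overlapped, and the LPS libraries stood well above the others. The log2 fold change was 2.53 ± 0.26 for LPS against control (adjusted p = 0.000575), -1.998 ± 0.258 for LPS+HACA against LPS (0.00569) and 0.53 ± 0.25 for LPS+HACA against control (0.485). Counts of Arid5a per count of Zc3h12a, its opponent, were 0.267 and 0.261 with LPS+HACA, 0.392 and 0.257 with LPS, and 0.245 and 0.307 in control, with all 3 groups overlapping. That ratio sets mostly intronic Arid5a counts (92.6%) against mostly exonic Zc3h12a counts (97.4%). The retained-intron transcript Arid5a-215 held 76.1% of the Arid5a counts. Coding transcripts were counted only on Arid5a-208, with 25 and 37 counts with LPS+HACA, 48 and 85 with LPS, and 33 and 55 in control. On coding transcripts alone the changes were 1.07 for LPS against control (adjusted p = 0.152) and -1.59 for LPS+HACA against LPS (0.0897), so the calls rest on intronic counts.

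The roquin genes were measured almost only on intronic counts, and Rc3h1 also on few counts. For Rc3h2 96.7% of the counts were intronic, and its coding transcript Rc3h2-202 held 76 counts over the 6 libraries. Rc3h2 (chr2:37370069-37422903, minus strand) had 30.1 and 32.6 CPM with LPS+HACA, 33.2 and 20.3 CPM with LPS, and 20.7 and 31.2 CPM in control. All groups overlapped, and the log2 fold change was 0.05 ± 0.32 for LPS against control (adjusted p = 0.931) and 0.23 ± 0.32 for LPS+HACA against LPS (0.662). Rc3h1 (chr1:160906418-160974978, plus strand) had 6 and 5 counts with LPS+HACA, 8 and 11 with LPS, and 11 and 10 in control, all on the retained-intron transcript Rc3h1-203. The coding transcript Rc3h1-202 was listed at 0 in every library despite 7530 unshared bases. On these 51 counts the log2 fold change was 0.45 ± 0.63 for LPS against control (adjusted p = 0.632) and -1.37 ± 0.67 for LPS+HACA against LPS (0.205).

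Elavl1 (chr8:4285382-4325413, minus strand), the HuR gene, had 20.2 and 23.8 CPM with LPS+HACA, 25.7 and 45.3 CPM with LPS, and 22.9 and 24.3 CPM in control. The LPS libraries were the highest, the first of them only narrowly, and LPS+HACA overlapped control. Its log2 fold change was 0.59 ± 0.30 for LPS against control (adjusted p = 0.178) and -0.69 ± 0.30 for LPS+HACA against LPS (0.168). Without the first LPS library these became 0.95 (adjusted p = 0.0183) and -1.04 (0.0213), and without the second they became 0.13 (0.754) and -0.23 (0.616). Scaled by library totals they were -0.09 (0.816) and -0.01 (0.977). The coding transcript Elavl1-201 had 214 and 219 counts with LPS+HACA, 183 and 342 with LPS, and 261 and 227 in control. Counts of Elavl1 per count of Zfp36, proteins with opposite effects on AU-rich RNA, were 0.915 and 0.752 with LPS+HACA, 0.989 and 0.789 with LPS, and 1.95 and 1.52 in control. This ratio was highest in the control libraries, and those of LPS+HACA and LPS overlapped. Of the counts behind it, 88.2% for Zfp36 and 32.6% for Elavl1 were intronic, so it does not compare the messenger RNAs alone.

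Levels of different genes can be compared only per length, and here their order depended on which length was used. In the authors' FPKM, summed over transcripts, Zfp36l2 led with LPS+HACA at 144 and in control at 215, whereas with LPS Zc3h12a led at 140.1. In control, Zc3h12a (28.1), Zfp36l1 (25.6) and Zc3h12d (25.6) followed within the spread of their libraries, then Rc3h2 (9.86), Arid5a (6.14), Zfp36 (5.44), Elavl1 (4.31), Zc3h12c (2.27) and Rc3h1 (1.01). The libraries of Arid5a overlapped those of Zfp36. With LPS, Zc3h12c (35.7) and Arid5a (33.1) came after Zc3h12a and overlapped, and Zfp36l2 (26.9) came next. Counted per kilobase of unshared bases instead, Zfp36l1 stood at 231 CPM with LPS+HACA, 156 CPM with LPS and 261 CPM in control. On that scale Zfp36l2 stood at 155, 28.4 and 225 CPM in the same groups, below Zfp36l1 in all 3. With LPS the leader on that scale was Zc3h12c at 311 CPM, not Zc3h12a, which stood at 160 CPM and overlapped Zfp36l1.

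Partners of these proteins were examined by list. Of 17 tested deadenylase subunits and adaptors, the enzymes that shorten poly-A tails, 2 were higher and 1 lower with LPS than in control, no larger a share than the 15.9% and 14.3% of all genes. The 2 were the antiproliferative adaptors Btg2, with 128 and 130.0 CPM with LPS+HACA, 336 and 565 CPM with LPS, and 100.6 and 89.6 CPM in control, and Btg1. The 1 lower was Cnot10, a CCR4-NOT subunit, at -1.62 ± 0.35 on the log2 scale (adjusted p = 0.0114). With HACA added, all 3 were called in the other direction relative to LPS, 1 higher and 2 lower, against 5.74% and 7.67% of all genes. The list's median log2 change with LPS was -0.03, against -0.05 for all genes.

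Of 14 decapping and 5′ decay genes, 3 were higher with LPS (15.9% of all genes were) and none was lower: the decapping enzyme gene Dcp2, its activator Dcp1a, and the exonuclease gene Xrn1. Dcp2 had 227 and 183 CPM with LPS+HACA, 667 and 421 CPM with LPS, and 112 and 113 CPM in control. It was the 1 gene of the list called lower with HACA than with LPS (log2 fold change -1.41 ± 0.26, adjusted p = 0.0156), where 7.67% of all genes were. Of 13 RNA exosome genes, 4 were lower with LPS (Dis3l, Exosc5, Exosc7 and Exosc8), where 14.3% of all genes were, and Exosc5 and Exosc7 were higher with HACA than with LPS, where 5.74% of all genes were. The median log2 changes with LPS were 0.07 for the decapping list and -0.27 for the exosome list, against -0.05 for all genes.

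Among 15 other cytokine mRNA-binding proteins, 7 were higher and 1 lower with LPS, against 15.9% and 14.3% of all genes. Their median log2 change was 0.77, against -0.05 for all genes. Zc3hav1, the zinc finger antiviral protein gene, had 213 and 198 CPM with LPS+HACA, 424 and 448 CPM with LPS, and 109 and 95.7 CPM in control. Tia1, which represses translation of AU-rich messenger RNAs, moved the other way, with 18.0 and 14.9 CPM with LPS+HACA, 5.71 and 4.05 CPM with LPS, and 19.3 and 22.2 CPM in control. With HACA, Zc3hav1 and Cpeb4 were lower and Tia1 higher than with LPS alone, where 7.67% of all genes were lower and 5.74% higher.

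Proteins that switch the decay factors on and off are the MK2 kinase, which phosphorylates tristetraprolin, and the MALT1 protease, which cleaves regnase-1 and roquins. Of 14 such upstream regulators, 7 were higher and 1 lower with LPS than in control, against 15.9% and 14.3% of all genes, with a median log2 change of 0.89 against -0.05. Between LPS+HACA and LPS, 1 was higher and 7 were lower, against 5.74% and 7.67% of all genes, with a median of -0.76 against 0.06. Malt1 had 150.2 and 164 CPM with LPS+HACA, 952 and 1226 CPM with LPS, and 36.8 and 46.7 CPM in control. Mapkapk2, the MK2 gene, had 1649 and 1739 CPM with LPS+HACA, 4056 and 5039 CPM with LPS, and 535 and 597 CPM in control. Both were highest with LPS and both stayed above control with HACA, where the log2 fold changes against control were 1.91 ± 0.23 for Malt1 (adjusted p = 0.0146) and 1.58 ± 0.20 for Mapkapk2 (0.0165). Mapk14, which encodes the p38α kinase upstream of MK2, was the gene that ran the other way, at -1.06 ± 0.25 for LPS against control (adjusted p = 0.0144) and 1.10 ± 0.25 for LPS+HACA against LPS (0.0266).

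Messenger RNAs known as targets of these proteins were mostly highest with LPS. Of 10 tested tristetraprolin targets, 9 were higher with LPS than in control, where 15.9% of all genes were. The same 9 were lower with LPS+HACA than with LPS, where 7.67% of all genes were. Another comparison, LPS+HACA against control, had 3 higher (Ccl3, Ptgs2 and Tnf), against 0.894% of all genes. The list's median log2 changes were 6.80, -4.65 and 1.13 in these comparisons, against -0.05, 0.06 and 0.00 for all genes. Csf2 had no count with LPS+HACA or in control, and the medians were the same with 3 counts set in such a group. Tnf had 65.5 and 91.2 CPM with LPS+HACA, 998 and 2046 CPM with LPS, and 7.47 and 12.3 CPM in control. Of 7 tested regnase-1 or roquin targets, 5 were higher with LPS than in control, against 15.9% of all genes. Also, 5 were lower with LPS+HACA than with LPS, against 7.67% of all genes. The list's median log2 changes were 7.90 and -6.59 in these comparisons, against -0.05 and 0.06 for all genes. Nfkbiz and Ptgs2 were higher with LPS+HACA than in control, where 0.894% of all genes were. Nfkbiz, which carries the stem-loop printed above, had 14.0 and 17.2 CPM with LPS+HACA, 88.5 and 119 CPM with LPS, and 1.88 and 3.18 CPM in control. The target lists do not separate decay from transcription, since only RNA levels were measured.

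Pattern neighbours were sought among 6963 protein-coding genes by the distance between centred log2 CPM values over the 6 libraries. Nearest to Zfp36 were Gpr132 and Daam1, both at 0.265, and Flna at 0.334, where the median gene lay at 1.91. Nearest to Zc3h12a were Slc23a2 at 0.180, Cry1 at 0.244 and Adgrf1 at 0.250, where the median gene lay at 2.52. Slc23a2 had 334 and 406 CPM with LPS+HACA, 836 and 1626 CPM with LPS, and 227 and 274 CPM in control, sharing with Zc3h12a a second LPS library well above the first.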

How the data were processed

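Poly-A RNA was sequenced from 6 libraries, per the labels' protocols. The authors deposited raw read counts per transcript and FPKM values, per the file headers. For transcripts with 50 or more counts in every library, 99.7% of the FPKM values matched count over length to 0.1%. For this, each library's scale was set to the median of its own values and was not checked against its total. Per the submitters' processing notes, which give no roles, the tools were STAR 2.5.4b, Trim Galore, CASAVA, DESeq2 1.26.0, edgeR 3.28.1 and limma. The counting program, with its use of strand, was not given in the sources used here. Transcript counts were added up by gene identifier of GENCODE vM21 (GRCm38), found for 141524 of 142647 transcripts. The other 1123, with no more than 0.115% of any library, were left out. Genes of type misc_RNA held 24.3% to 29.2% of counts.

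One edgeR 4.0.16 quasi-likelihood model (R 4.3.3) with group as its only term was fitted to all libraries after filterByExpr and TMM scaling, with 3 residual degrees of freedom. A gene was called at a Benjamini-Hochberg adjusted p under 0.05 over 17113 genes. SE was taken as the size of the log2 change over the root of the F statistic. Unshared bases belong to 1 annotated transcript on either strand. The procedure was tested on simulated counts. The 10 genes and all lists were chosen with earlier results of these data known. From each list, at most 3 called genes per direction and comparison with the largest change and a mean of at least 5 CPM in the higher group could be named; other names complete counts of 5 or fewer. Sequences come from GENCODE transcripts and GRCm38. Alternatives were other scalings, filters, tools (DESeq2 1.42.0, limma 3.58.1), transcripts, a replicate block, and leaving out each library.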

Additional observations from a re-analysis of the deposited data

How the results depend on the processing

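Of 500 recomputed changes of single genes, 464 stayed on their side of the threshold, 27 lost a call and 9 gained one, and no called gene changed sign. Library totals alone moved the median of all genes to -0.69 (LPS against control) and 0.70 (LPS+HACA against LPS), from -0.05 and 0.06, and the share of calls that were higher to 21.7% and 87.0%, from 52.6% and 42.8%. Genes called higher for LPS against control (2715) numbered 1417 with library totals and 1447 on coding transcripts alone, an alternative added after seeing the data; those called lower (2442) numbered 5111 and 1241. For LPS+HACA against LPS, 983 higher became 3501 with library totals, 1845 unfiltered, 588 with limma-voom, 252 with 2 groups alone and 407 on coding transcripts, and 1312 lower became 522 with library totals, 509 with 2 groups and 638 on coding transcripts. For LPS+HACA against control, 153 higher became 661 unfiltered, 455 with DESeq2, 82 with limma-voom, 324 with 2 groups and 55 on coding transcripts, and 44 lower became 24 with library totals, 250 unfiltered, 180 with DESeq2, 159 with 2 groups and 12 on coding transcripts. The causes were not tested. Among the 10 genes, those higher with LPS+HACA than with LPS (2) became 1 with 2 groups alone and 3 with library totals, and those higher with LPS+HACA than in control (0) became 1 unfiltered and 1 with DESeq2. Leaving out 1 library gave 1190 to 3024 higher and 916 to 2817 lower genes for LPS against control, 152 to 1617 and 216 to 1793 for LPS+HACA against LPS, and 0 to 420 and 0 to 186 for LPS+HACA against control. For the 10 genes the ranges were 3 to 5 higher and 1 to 3 lower, 1 to 2 higher and 1 to 4 lower, and 0 in both directions. Same-numbered libraries deviated together (r = 0.287 for LPS and control, 0.477 for LPS+HACA and control, 0.455 for LPS+HACA and LPS), but 2 pairs do not show that the numbers pair the samples. With the replicate block, 1955 genes were higher and 2356 lower for LPS+HACA against LPS, and 628 and 307 for LPS+HACA against control, where 2 of the 10 genes became higher (Zfp36, adjusted p = 0.0429, and Zc3h12c, 0.00107) and 1 lower (Zc3h12d, 0.0203). Rc3h1 rests on 51 counts over the 6 libraries.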
